A study of Rattus norvegicus with 8 samples.

Results

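The genes described here are 10 genes of distal tubule calcium and magnesium handling, namely Trpv5, Trpv6, Calb1, S100g, Slc8a1, Atp2b1, Casr, Trpm6, Stc1 and Stc2. Their members were all probe sets to which the array's gene table gave exactly 1 of these symbols and no other. This rule found 15 probe sets of 9 genes among the 31099 probe sets of the array, and no probe set for Trpm6. The rule used no measured value.

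RNA of whole kidney from 8 male Wistar rats was hybridized to Affymetrix genome arrays, with 1 rat per array. There were 4 rats on the control diet with 0.3% phosphorus and 4 rats on the high-phosphorus (HP) diet with 1.2% phosphorus. Both diets were based on AIN-93G with the same calcium content and were fed for 24 days, after 7 days of control diet for every rat, and the rats were 8 weeks old. The authors took the left kidney and chose 4 average rats of the 5 in each group by urine volume and kidney phosphorus content, and the spread given here is therefore among selected rats. The HP diet carried its extra phosphorus as KH2PO4 in place of corn starch, and the effects of phosphorus and of potassium cannot be told apart.

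In the distal convoluted and connecting tubule, calcium enters the cell from the urine through the channel Trpv5 and its relative Trpv6, is carried across the cell by calbindins, and leaves on the blood side through a sodium-calcium exchanger and a calcium pump. Magnesium enters through the channel Trpm6. The calcium-sensing receptor Casr, best known in the kidney on the blood side of the thick ascending limb, lowers calcium and magnesium reabsorption when blood calcium is high, while stanniocalcins are secreted glycoproteins first known as regulators of calcium and phosphate in fish.

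Casr was the only one of the 15 probe sets that passed the test, and it was lower on the HP diet. No probe set of the entry channels, calbindins, exchanger, pump or stanniocalcins passed. The test was limma with an adjusted p (Benjamini-Hochberg, over all 31042 probe sets that are not Affymetrix controls) under 0.05. Of all tested probe sets 2.95% passed as higher on the HP diet, against 0 of the 15 members, and 1.13% passed as lower, against 1 of the 15. By rank products, the method of the authors, with an FDR under 0.05, 3.4% of all 31099 probe sets were higher and 2.31% lower, against 0 and 1 member. The share of all probe sets with every HP array above every control array was 7.09%, and with every HP array below every control array 5.81%. Among members there was 1 of each kind, Atp2b1 (1370050_at) and Casr. These counts are small, and the shares of the members were not tested against those of the array.

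The authors summarized the probes of each probe set with the distribution free weighted method (DFW) into a log value, taken as log2. DFW draws the arrays' values of 1 probe set toward each other, so a difference in these values is not a log2 fold change. The median SD within groups was 2.22e-06 over all tested probe sets, and those of the members ran from 1.05e-07 to 6.55e-05. For this reason each difference is given as HP minus control with its SE, and as a standardized difference, which is that difference in units of the pooled SD of the diets. Values for single arrays are given as SDs from the control mean, replicates 1 to 4 in order. Of the members, 8 had values above the array median on every array and 7 below it on every array. Since whole kidney was measured, fewer cells of a type and less RNA per cell cannot be told apart.

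**Figure D1:**
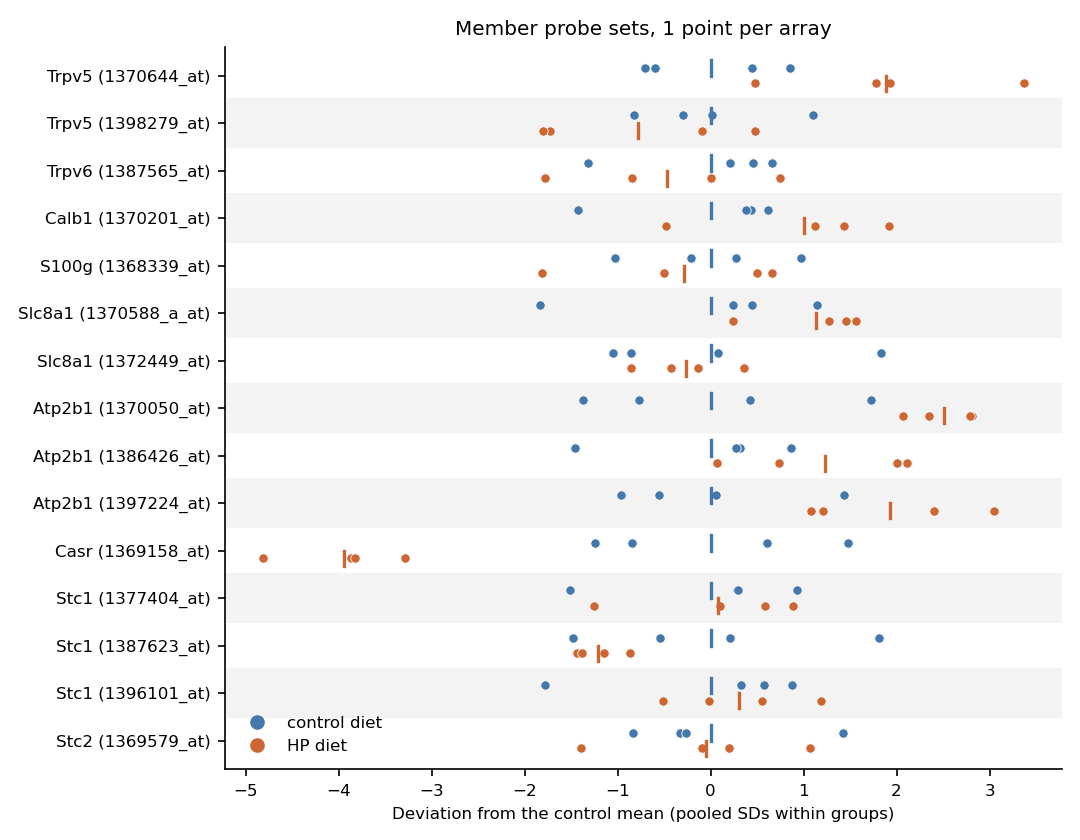
Deviation from the control mean, in pooled SDs within groups, of each array for the 15 member probe sets, with 1 point per array (control diet above, HP diet below in each row) and vertical bars for the group means. The HP arrays of Casr sit between -4.81 and -3.28 and do not overlap the control arrays, and those of Atp2b1 (1370050_at) lie between 2.07 and 2.81, above every control array.

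Neither of the 2 probe sets of Trpv5, the channel through which most calcium enters distal tubule cells, passed the test. The probe set 1370644_at (mean level 6.57) was at -0.60, -0.70, 0.45 and 0.85 SDs on the control arrays and at 3.37, 1.93, 0.48 and 1.78 SDs on the HP arrays. Thus 3 of the 4 HP arrays lay above the highest control array and HP replicate 3 lay among the controls. The difference was 1.21e-05 (SE 4.53e-06, n = 4 and 4), a standardized difference of 1.89 with a 95% interval from 0.30 to 3.48, and it did not pass with an adjusted p of 0.19 by limma. The probe set 1398279_at (mean level 6.76) was at -0.82, -0.30, 0.02 and 1.10 SDs on the control arrays and at 0.48, -1.73, -0.09 and -1.80 SDs on the HP arrays. The groups overlapped, with a standardized difference of -0.79 (adjusted p = 0.60 by limma). The 2 probe sets of Trpv5 thus differed in sign, and neither passed.

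Trpv6, the related calcium channel, is the neighbour of Trpv5 on chromosome 4, with 0 annotated genes between them in the GRCr8 assembly. Its probe set (1387565_at, mean level 6.68) was at 0.66, -1.32, 0.46 and 0.21 SDs on the control arrays and at 0.75, -0.84, 0.01 and -1.78 SDs on the HP arrays. Both the highest and the lowest array were on the HP diet, and the groups overlapped. The difference was -5.85e-07 (SE 8.87e-07), a standardized difference of -0.47 with a 95% interval from -2.13 to 1.20 and an adjusted p of 0.80 by limma.

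Calb1, calbindin-D28k, which binds calcium in the cytoplasm of distal tubule cells, had 1 probe set (1370201_at, mean level 11.46). It was at 0.44, 0.38, -1.43 and 0.62 SDs on the control arrays and at 1.44, -0.48, 1.92 and 1.12 SDs on the HP arrays. On the HP diet 3 arrays lay above every control array, while HP replicate 2 lay below 3 of the controls, and control replicate 3 was the lowest of all. The standardized difference was 1.00 (95% interval -0.58 to 2.59, difference 2.24e-05, SE 1.58e-05) with an adjusted p of 0.49 by limma. S100g, calbindin-D9k, a smaller calcium buffer whose gene responds to vitamin D, was at 0.97, 0.27, -1.03 and -0.21 SDs on the control arrays and at 0.66, -1.81, 0.50 and -0.50 SDs on the HP arrays (1368339_at, mean level 7.36). These groups overlapped, the standardized difference was -0.29 (95% interval -1.88 to 1.29) and the adjusted p was 0.88 by limma.

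On the blood side of the cell, Slc8a1, the sodium-calcium exchanger 1, was measured by 2 probe sets. One (1370588_a_at, mean level 6.27) was at 0.24, -1.83, 0.45 and 1.14 SDs on the control arrays and at 0.24, 1.27, 1.56 and 1.46 SDs on the HP arrays, so 3 HP arrays were above every control array and HP replicate 1 was not. Its standardized difference was 1.13 (95% interval -0.53 to 2.80, adjusted p = 0.45 by limma). The other (1372449_at, mean level 9.27) was at 0.08, -0.86, -1.05 and 1.83 SDs on the control arrays and at 0.36, -0.86, -0.42 and -0.14 SDs on the HP arrays. Every HP array of that probe set lay within the range of the controls, with a standardized difference of -0.26 (95% interval -1.85 to 1.32, adjusted p = 0.89 by limma).

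Atp2b1, the plasma membrane calcium pump 1, had 3 probe sets with positive standardized differences, and none passed. The probe set 1370050_at (mean level 9.92) was at -1.37, 1.72, -0.77 and 0.42 SDs on the control arrays and at 2.81, 2.35, 2.79 and 2.07 SDs on the HP arrays, so every HP array was above every control array. Its difference was 2.63e-07 (SE 7.41e-08, without moderation), a standardized difference of 2.51. The 95% interval of the latter, with moderation, ran from -3.77 to 8.78. An exact permutation test of the arrays gave a two-sided p of 0.029, the smallest that 4 against 4 arrays can give. The adjusted p was nevertheless 0.69 by limma with moderation and 0.14 without it. The SD of this probe set was the smallest of the 15 members, at 1.05e-07, which is 105 times the last digit of the deposited values, and moderation draws so small an SD toward those of other probe sets.

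The second pump probe set (1386426_at, mean level 8.28) was at 0.32, 0.87, 0.27 and -1.46 SDs on the control arrays and at 0.07, 0.74, 2.11 and 2.0 SDs on the HP arrays. Here 2 HP arrays lay among the controls, and the standardized difference was 1.23 (95% interval -0.39 to 2.85, adjusted p = 0.40 by limma). The third (1397224_at, mean level 8.38) was at -0.96, 0.06, -0.55 and 1.44 SDs on the control arrays and at 1.08, 3.05, 2.40 and 1.21 SDs on the HP arrays. Its standardized difference was 1.93 (95% interval -0.77 to 4.64, adjusted p = 0.43 by limma), and control replicate 4 lay above 2 of the HP arrays. The authors also assigned to Atp2b1 a probe set that has no symbol in the gene table used here. It lay outside the rule and was chosen after its values were seen. It was at -0.04, -0.84, -0.96 and 1.84 SDs on the control arrays and at 3.53, 3.24, 4.49 and 4.17 SDs on the HP arrays, with a standardized difference of 3.86 (adjusted p = 0.031 by limma). The call was lost in 7 of the 8 fits that left out 1 array, with adjusted p from 0.013 to 0.084. It was also lost without moderation (adjusted p = 0.058 by limma) and with the replicate block (adjusted p = 0.084 by limma). Rank products called this probe set higher (FDR 0.047), and the authors listed it as upregulated. The study chose it on the same arrays, so it is no independent evidence for the pump.

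Casr, the calcium-sensing receptor, fell on the HP diet. Its probe set (1369158_at) had deposited values of 8.786342, 8.786364, 8.786297 and 8.786307 on the control arrays and of 8.786209, 8.786232, 8.786247 and 8.786233 on the HP arrays. The groups did not overlap, since all HP arrays were below the lowest control array, and HP replicate 1 was the lowest. In SDs from the control mean the HP arrays were at -4.81, -3.87, -3.28 and -3.82. The difference was -9.69e-05 (SE 1.74e-05; SD 3.11e-05 on the control diet and 1.56e-05 on the HP diet), a standardized difference of -3.94 with a 95% interval from -5.53 to -2.36. The adjusted p was 0.029 by limma, and the rank products FDR was 0.0012. The exact permutation p was 0.029 (two-sided), the smallest that 4 against 4 arrays can give. Any probe set without overlap reaches it, so it adds nothing to the lack of overlap.

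The limma call of Casr held in 1 of the 8 fits that left out 1 array. Without control replicate 3 the adjusted p was 0.046, and leaving out any of the other 7 arrays raised it above the threshold, to 0.078 without control replicate 1, 0.056 without control replicate 2, 0.053 without control replicate 4, 0.076, 0.074, 0.051 and 0.067 without HP replicates 1, 2, 3 and 4. The standardized difference stayed between -4.90 and -3.56 in these 8 fits. By rank products Casr was called in all 8, with an FDR from 0.0013 to 0.013.

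**Figure D2:**
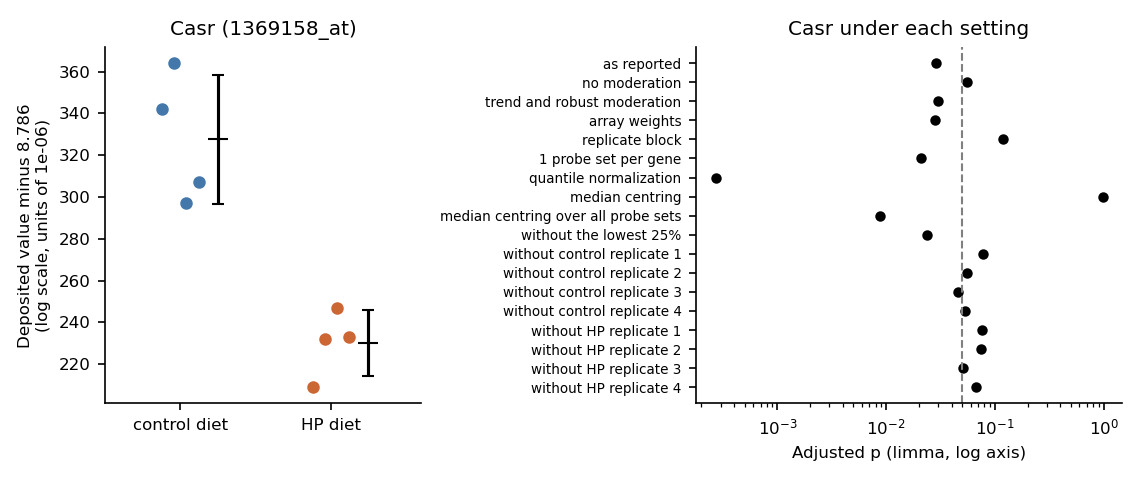
Left, deposited values of the Casr probe set on the 4 control and 4 HP arrays, as the distance from a fixed offset in units of 1e-06 on the log scale, with the mean and SD of each diet beside the points. Right, the adjusted p of Casr by limma (log axis) as reported and under each other setting, with the dashed line at 0.05. As reported it is 0.029. It reaches 0.98 under median centring and is 0.0087 under centring on medians over all probe sets, chosen after seeing the data.

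The sequence before the start of Casr is shown since Casr was the one member that passed. The sequences before the starts of the members were searched for the 6-base elements that the vitamin D receptor and related nuclear receptors bind as single arms of their sites. RefSeq windows of the 250 bases before the start (GRCr8) existed for 7 of the 10 genes, Trpv5, Trpv6, Slc8a1, Atp2b1, Casr, Trpm6 and Stc2. The letters AGGTCA or GGTTCA on either strand were found in 2 of these 7 genes, Casr and Trpv6, and in 22.2% of the 33469 windows of this length. Capitals mark the match. In Casr it was TGACCT, which reads AGGTCA on the other strand and begins 23 bases before the start, and in Trpv6 it was AGGTCA, which begins 175 bases before the start. A match is a description of letters and no evidence of a bound site. The whole window of Casr (chr11:77740364-77740613, plus strand) and 40 bases around the match of Trpv6 (within chr4:71489668-71489917, minus strand) read as follows.
Casr: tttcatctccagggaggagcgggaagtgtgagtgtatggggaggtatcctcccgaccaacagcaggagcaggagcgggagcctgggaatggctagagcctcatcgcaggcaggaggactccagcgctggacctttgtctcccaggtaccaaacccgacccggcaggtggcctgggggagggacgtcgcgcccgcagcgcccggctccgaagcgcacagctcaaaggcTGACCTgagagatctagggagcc
Trpv6: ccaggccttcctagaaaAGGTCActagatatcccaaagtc

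Stc1, stanniocalcin 1, is a secreted protein that the collecting duct is known to make. Its 3 probe sets gave no common direction. The probe set 1377404_at (mean level 7.58) was at -1.51, 0.93, 0.28 and 0.30 SDs on the control arrays and at 0.10, 0.59, -1.25 and 0.89 SDs on the HP arrays, with a standardized difference of 0.09 (95% interval -1.50 to 1.67, adjusted p = 0.97 by limma). The probe set 1387623_at (mean level 6.48) was at -1.48, 1.81, 0.21 and -0.54 SDs on the control arrays and at -0.87, -1.44, -1.38 and -1.15 SDs on the HP arrays. Its 4 HP arrays lay close together within the lower part of the control range, and the standardized difference of -1.21 (95% interval -2.80 to 0.38) did not pass (adjusted p = 0.40 by limma). The probe set 1396101_at (mean level 6.93) was at -1.78, 0.88, 0.57 and 0.33 SDs on the control arrays and at 0.55, -0.02, -0.51 and 1.19 SDs on the HP arrays, and the standardized difference was 0.30 (95% interval -1.28 to 1.89, adjusted p = 0.87 by limma).

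Stc2, stanniocalcin 2, the relative of Stc1, was at -0.83, -0.33, 1.42 and -0.26 SDs on the control arrays and at -0.09, -1.39, 1.07 and 0.20 SDs on the HP arrays (1369579_at, mean level 6.48). The groups overlapped almost fully, and its standardized difference of -0.05 was the smallest in size of the 15 members, with a 95% interval from -3.56 to 3.46 and an adjusted p of 0.99 by limma. A further probe set without a symbol, which the authors assigned to Stc1 and which was chosen after its values were seen, was at -1.70, 0.64, 0.38 and 0.67 SDs on the control arrays and at 1.37, 0.10, -0.37 and 1.17 SDs on the HP arrays. Its groups overlapped and it did not pass by limma (standardized difference 0.57, adjusted p = 0.72), whereas rank products gave it an FDR of 0.029.

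Over the members together, 8 standardized differences were positive and 7 negative, with a median of 0.09, where all tested probe sets had a median of -0.21 and 42.3% were positive. The median size without sign was 1.00 among members and 0.79 over all tested probe sets. An unadjusted p under 0.05 was found for 2 members, Casr and Trpv5 (1370644_at), and for 19.0% of all tested probe sets. Centring each array on its median lowered every difference on the array by the same 6.11e-05, which is more than the largest positive difference of a member (2.24e-05), so all 8 positive signs turned by construction and this says nothing of a single probe set. With 4 arrays per diet the 95% intervals were at least 3 SDs wide, so an adjusted p above the threshold does not show that the diets had the same level.

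The other genes of the pathway were taken from 5 lists with 82 genes, of which 69 were measured, each by its probe set of highest mean. By limma 4 passed as higher and 0 as lower on the HP diet, or 5.8% and none, beside 2.95% and 1.13% of all tested probe sets, and their median standardized difference was -0.33. By rank products 3 were higher and 6 lower, beside 3.4% and 2.31% of all probe sets. Counts this small were not tested against those shares.

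Among regulators of Trpv5 and of distal calcium entry, 2 of 14 measured genes passed, and both belong to the same protein complex. Anxa2 and S100a10 form the annexin A2 and p11 pair that carries Trpv5 and Trpv6 to the cell surface. Anxa2 (1367584_at) was at 0.06, -0.16, 0.30 and -0.19 SDs on the control arrays and at 4.60, 6.55, 4.54 and 3.15 SDs on the HP arrays. S100a10 (1386890_at) was at -0.33, 0.13, -0.10 and 0.30 SDs on the control arrays and at 4.78, 6.26, 3.90 and 3.0 SDs on the HP arrays. In both genes every HP array was above every control array, and HP replicate 2 was the highest. The differences were 0.0028 (SE 0.00042) and 0.00156 (SE 0.000247), with adjusted p of 0.019 and 0.021 by limma, while a second Anxa2 probe set (1392250_at) had an adjusted p of 0.86. Each call was lost in 5 of the 8 fits without 1 array, with adjusted p from 0.012 to 0.059 for Anxa2 and from 0.017 to 0.069 for S100a10. The call of Anxa2 was also lost under quantile normalization (adjusted p = 0.065), that of S100a10 under median centring (adjusted p = 0.98), and both with the replicate block (adjusted p = 0.076 and 0.082 by limma). Under centring on medians over all probe sets, chosen after seeing the data, S100a10 kept its call (adjusted p = 1.4e-06 by limma). Rank products called Anxa2 and S100a10 higher, with FDRs of 1.6e-05 and 2e-05. Both genes are also active in macrophages, fibroblasts and injured tubules, whose mean marker levels were higher on every HP array (2.78 SDs or more), and the part of these cells in both differences was not tested.

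Of the same list, rank products called Kl, the klotho protein that stabilizes Trpv5 at the cell surface, and Sgk1, a kinase that raises its activity, as lower, with FDRs of 0.0021 and 0.0012, and Slc9a3r2, a scaffold of the apical membrane, with an FDR of 0.034. These genes, chosen after their values were seen, did not pass by limma, with standardized differences of -1.77 for Kl (adjusted p = 0.22), -0.39 for Sgk1 (adjusted p = 0.82) and -2.35 for Slc9a3r2 (adjusted p = 0.12).

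Among calcium hormone receptors and vitamin D enzymes 1 of 13 measured genes passed. Ramp1, a partner protein that turns the calcitonin receptor into an amylin receptor, rose by 0.000353 (SE 6.36e-05), from 0.22, 0.53, -1.26 and 0.51 SDs on the control arrays to 4.13, 5.38, 3.45 and 2.72 SDs on the HP arrays (adjusted p = 0.029 by limma). The call was lost in 6 of the 8 fits without 1 array, without moderation (adjusted p = 0.056), with the replicate block (adjusted p = 0.077) and under median centring (adjusted p = 0.98). It held under centring on medians over all probe sets, chosen after seeing the data (adjusted p = 0.00028 by limma). Rank products called Ramp1 higher (FDR 0.00076). Vdr, the vitamin D receptor, had a standardized difference of 1.17 (adjusted p = 0.42), and Cyp27b1, which makes active vitamin D, one of 1.31 (adjusted p = 0.35). Pth1r, the parathyroid hormone receptor, was called lower by rank products (FDR 0.011) and not by limma (standardized difference -2.45, adjusted p = 0.11). The values of these 3 genes were chosen after they were seen.

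Among calcium pumps and exchangers 1 of 11 measured genes passed, Atp2c1, a calcium and manganese pump of the Golgi. Its probe set of highest mean (1387126_at) was at -1.41, 1.15, 0.16 and 0.10 SDs on the control arrays and at 2.45, 2.89, 4.60 and 3.61 SDs on the HP arrays, with a difference of 1.1e-05 (SE 2.31e-06, adjusted p = 0.045 by limma). The call was lost in all 8 fits without 1 array, with adjusted p from 0.062 to 0.11, its sign turned under quantile normalization, and 2 other probe sets of the gene had adjusted p of 0.76 and 0.8. Quantile normalization left the probe set of highest mean with no spread within the diets. Rank products did not call Atp2c1 (FDR 0.24 for higher). Atp2c2, its relative, was called lower by rank products alone (FDR 0.015, limma adjusted p = 0.24).

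Of 10 measured genes of paracellular calcium and magnesium transport in the thick limb and of 21 genes of distal magnesium transport, 0 passed by limma. The genes with the smallest p in the first were Cldn10, a tight junction protein of the thick limb (standardized difference -2.65, adjusted p = 0.096), and Bsnd, a chloride channel subunit (standardized difference -1.96, adjusted p = 0.18). In the second they were Cnnm1, a relative of a magnesium transporter of the distal tubule (standardized difference -3.22, adjusted p = 0.051, rank products FDR 0.033), and Slc12a3, the thiazide-sensitive sodium chloride cotransporter (standardized difference -2.72, adjusted p = 0.082). In each of these 4 genes all HP arrays were below the lowest control array, as in 5.81% of all tested probe sets. The 4 were named for their small p, so this separation is no further evidence. It was not counted over the other genes of these lists.

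**Figure D3:**
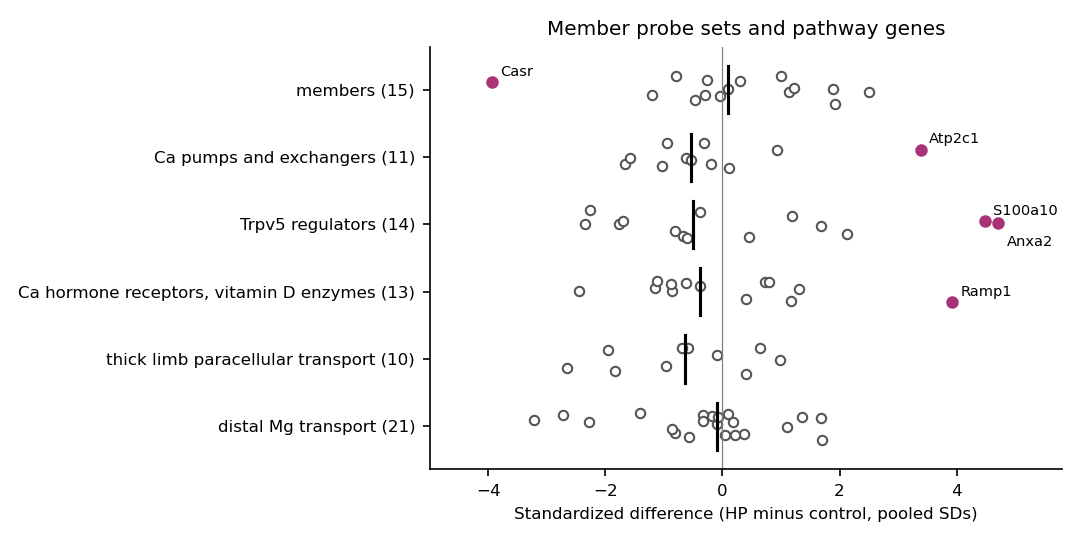
Standardized difference (HP minus control, in pooled SDs) of the 15 member probe sets and of the measured genes of each pathway list, with 1 point per probe set, filled where limma's adjusted p was under 0.05, and a vertical bar at the median. Casr is the filled point below 0, at -3.94, and the 4 filled points above 0 are Atp2c1, whose sign turned under quantile normalization, Anxa2, S100a10 and Ramp1.

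The tissue and its cell types were checked with marker lists, of which 15 of 15 proximal tubule markers, 9 of 9 thick limb markers and 14 of 17 distal convoluted and connecting tubule markers were above the array median on every array, against 1 of 16 markers of liver, muscle and pancreas. Each list is given by the mean deviation of its genes from the control mean. The distal convoluted and connecting tubule markers, of the cells in which most members act, ran from -0.38 to 0.42 SDs on the control arrays and from -0.57 to 0.35 SDs on the HP arrays, with 1 of 17 higher by limma (Scnn1b, a subunit of the epithelial sodium channel, standardized difference 3.53, adjusted p = 0.044) and 0 lower. By rank products 0 of the 17 were higher and 3 lower, namely Kl, Sgk1 and Ptgds, a prostaglandin synthase (FDR 0.031, standardized difference -0.24). The groups of arrays overlapped on that list. Its median standardized difference was -0.33, with 11 of the 17 negative. The most negative, named with its value in view, was Slc12a3 at -2.72 (adjusted p = 0.082 by limma).

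Beside the fall of Casr stand the markers of the thick ascending limb, a main site of the receptor, which ran from -0.36 to 0.40 SDs on the control arrays and from -1.06 to -0.71 SDs on the HP arrays without overlap. Of these 9 markers 0 passed as higher and 1 as lower (Gp2, a secreted glycoprotein, standardized difference -4.19, adjusted p = 0.025 by limma), while Umod, uromodulin, had a standardized difference of -0.10 and Slc12a1, the sodium-potassium-chloride cotransporter, one of 0.41. Egf was at -2.28 (adjusted p = 0.13 by limma) and Bsnd at -1.96 (adjusted p = 0.18 by limma). These single markers were named with their values in view. The median standardized difference of the list was -0.58, with 6 of the 9 negative. Intercalated cell markers ran from -0.35 to 0.55 on the control and from -1.81 to -1.08 on the HP arrays, and proximal tubule markers from -0.23 to 0.57 and from -2.30 to -0.32, with 0 of 7 and 0 of 15 passing by limma. The proximal means include large standardized differences to which limma gave high adjusted p. These were -3.31 for Miox (adjusted p = 0.31), -2.85 for Fbp1 (0.52) and, the other way, 1.92 for Aqp1 (0.47). Rank products called 1 lower in each of the 3 lists, Gp2, Slc26a4, the anion exchanger pendrin (FDR 0.0059), and Slc34a3, a sodium-phosphate cotransporter (FDR 0.0029). The part of these shifts in the Casr result was not tested.

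The mean deviations of the markers of tubular injury, macrophages and fibroblasts were higher on every HP array than on any control array. Among their genes, Cd163 of the macrophage list (-0.26) and Fap of the fibroblast list (-0.89) had negative standardized differences. Of the injury markers 8 of 12 passed as higher, with mean deviations from 4.47 to 6.47 SDs on the HP arrays. Of the macrophage and monocyte markers 14 of 19 passed (2.78 to 5.18 SDs), and of the fibroblast and myofibroblast markers 7 of 13 (3.48 to 3.93 SDs). The macrophage list holds Adgre1 also under its old symbol Emr1, so the same probe set, which passed, is counted under both symbols in these values. Collecting duct, podocyte and endothelial markers overlapped between the diets, and 0 of 8, 0 of 8 and 0 of 10 passed by limma, while rank products called 1 endothelial marker lower (Vwf, von Willebrand factor, FDR 0.00086). Marker genes named for a rank products call were picked with their values in view. The part of these cells in the values of the members was not tested.

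**Figure D4:**
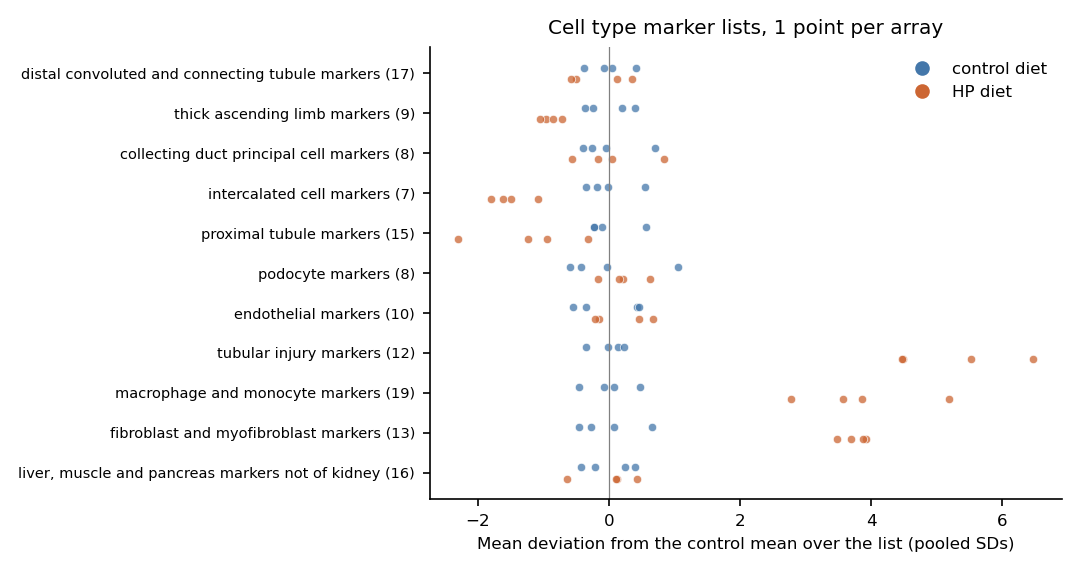
Mean deviation from the control mean, in pooled SDs, over the measured genes of each cell type marker list (number in brackets), with 1 point per array. The macrophage and monocyte list counts Adgre1 also under its old symbol Emr1. The HP arrays lie between 4.47 and 6.47 for the injury markers and between -1.06 and -0.71 for the thick ascending limb markers, and they overlap the control arrays for the distal convoluted and connecting tubule markers.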

How the data were processed

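Kidney RNA of 8 rats, 1 per array, was hybridized by the authors to Affymetrix whole-genome rat arrays, and the scanned probe intensities were condensed with DFW over all arrays. The deposited values, 1 per probe set and array, are logarithms, taken as log2 because their base is not given in the sources used here, and were used as deposited, to 10 significant digits. Every array had values for all 31099 probe sets, and no arrays held identical values. The number of arrays limits the precision.

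Genes came from GEO's platform annotation, which gives 1 symbol to 20832 probe sets, several to 436 and none to 9831, and can be old. The members and lists were chosen with earlier results of these data known. Named were all member probe sets, the genes of each pathway list that passed (otherwise those with the 2 smallest p), and others as stated.

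Diets, grouped by the labels, were compared with limma 3.58.1 in R 4.3.3 (empirical Bayes moderation, prior degrees of freedom 0.772, Benjamini-Hochberg adjusted p under 0.05 over 31042 probe sets, without 57 Affymetrix controls). Rank products followed the methods of the authors (16 array pairs, 1000 permutations, FDR under 0.05). Exact permutation tests used all 70 arrangements, and their smallest two-sided p is 0.029. The alternatives for limma were no moderation, trend and robust moderation, array weights, a replicate block and 1 probe set per gene. Further ones were quantile normalization, median centring, removal of the lowest 25% of probe sets and of each array in turn, and for rank products division by the SD and removal of the Affymetrix controls. Centring on medians over all probe sets was chosen after seeing the data. Rank products and permutations ran in Python 3.11.15 (scipy 1.17.1, numpy 2.4.6, pandas 2.3.3), figures in matplotlib 3.10.9, and tests were checked on simulated data. Scan dates and batches are not given in the sources used here. Blood, urine and staining data were not analysed here.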

Additional observations from a re-analysis of the deposited data

Results flagged for a closer look

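In 2 of the 34 groups of 4 arrays that were examined, 1 array stood apart from the other 3, measured as its gap to the nearest array divided by the range of the group and past Dixon's critical value for 4 samples at the 95% level. Control replicate 3 was low for Calb1 (1370201_at), with a value of 0.884, at -1.43 SDs from the control mean where the other control arrays lay between 0.38 and 0.62. Control replicate 1 was low for the probe set without a symbol that the authors assigned to Stc1, with a value of 0.878, at -1.70 SDs where the others lay between 0.38 and 0.67. Chance alone marks about 1 in 20 groups. Without control replicate 3 the difference of Calb1 went from 2.24e-05 to 1.17e-05 (standardized difference from 1.00 to 0.65) and did not pass either.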

How the results depend on the processing

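The count of members lower on the HP diet (1 by limma) was 0 without moderation, with the replicate block and under median centring, 5 under quantile normalization, and 0 to 1 without each array in turn. Under centring over all probe sets it was 1. By rank products it was 2 under quantile normalization. The 5 limma calls under quantile normalization included Trpv5 (1398279_at) and Stc1 (1377404_at), which then had no spread within groups, as had 49.1% of all probe sets. No member was higher under any setting by either method. The difference of Casr was -9.69e-05 without moderation (adjusted p = 0.055) and with the replicate block (adjusted p = 0.12), and -0.000158 under median centring (adjusted p = 0.98). Under centring over all probe sets, chosen after seeing the data, it was -0.000125 (adjusted p = 0.0087 by limma). Without each array in turn it ran from -0.000107 to -8.48e-05 (adjusted p 0.046 to 0.078), and under quantile normalization the adjusted p was 0.00027. Deviations of same-numbered arrays of the 2 diets correlated by 0.12, 0.09, 0.06 and 0.00, and those of other pairs by -0.17 to 0.08. Control replicates 1 and 2 correlated best with the HP array of their own number. Control replicate 3 did so with HP replicate 4 (0.07) and control replicate 4 with HP replicate 1 (0.08). Whether same-numbered arrays were processed together was not tested. With the block, the calls over all probe sets went from 915 higher and 350 lower to 254 and 115.

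Pathway genes higher by limma were 2 under quantile normalization and 1 under median centring, in place of 4, and 0 to 3 without each array in turn. Those lower were 18 under quantile normalization, 1 under median centring over all probe sets and 1 with all probe sets of each gene, in place of 0. Atp2c1 and Cnnm1 were among these 18 and had no spread within groups after quantile normalization. The counts under that setting are over values in which 49.1% of all probe sets had no such spread. Over all probe sets, higher and lower calls were 522 and 171 without moderation, 316 and 7714 under quantile normalization, 78 and 19 under median centring, 440 and 155 under centring over all probe sets, and 339 to 672 and 79 to 219 without each array in turn. By rank products (1057 and 719) they were 432 and 1137 under quantile normalization, 443 lower after division by the SD, and 644 to 1031 and 315 to 688 without each array in turn.

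Signs turned mainly with scaling. Array medians of the tested probe sets spanned 0.000185, more than the size of the difference of any member, Casr included (-9.69e-05). They differed by 6.11e-05 between the diets. Differences under median centring, then under centring over all probe sets, were -4.89e-05 and -1.56e-05 for Trpv5 (1370644_at), -3.87e-05 and -5.35e-06 for Calb1, -5.96e-05 and -2.63e-05 for Slc8a1 (1370588_a_at), -6.08e-05 and -2.74e-05 for Atp2b1 (1370050_at), -5.88e-05 and -2.54e-05 for Atp2b1 (1386426_at), -6.05e-05 and -2.72e-05 for Atp2b1 (1397224_at), -5.69e-05 and -2.36e-05 for Stc1 (1377404_at), -4.58e-05 and -1.24e-05 for Stc1 (1396101_at), and -5e-05 and -1.67e-05 for Atp2c1. The probe set without a symbol that the authors assigned to Atp2b1 was at -2.85e-05 under median centring. Quantile normalization turned Trpv5 (1370644_at) to -1.13e-05, Stc1 to -0.000405 (1377404_at) and -1.43e-05 (1396101_at), Atp2c1 to -0.000101 and that probe set to -1.13e-05, and left 9 of 15 members and 49.1% of all probe sets with no spread. Array weights turned Stc2 to 5.78e-09. Leaving out 1 array turned S100g (range -1.21e-05 to 4.14e-06), Slc8a1 1372449_at (-4.02e-05 to 2.28e-05), Stc1 1377404_at (-2e-05 to 2.54e-05), Stc1 1396101_at (-1.47e-05 to 3e-05) and Stc2 (-8.64e-08 to 8.62e-08). Of 246 comparisons of a member under another setting, 196 kept direction and side of the threshold and 29 turned. Of the turns, 16 came from the 2 centrings, which move every probe set by the same -6.11e-05 or -2.77e-05. The cause of the other turns was not tested. Casr kept its negative sign under every setting run.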
